A study of Mus musculus with 6 samples.

Results

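The Fc receptor-like genes are a family of immunoglobulin-superfamily genes related to the classical Fc receptors, and 5 of them, Fcrl1, Fcrl5, Fcrl6, Fcrla and Fcrlb, were followed here among 19938 genes measured on the arrays. They were taken by name, each from a probe set that maps to exactly 1 gene, and each of the 5 had 1 such probe set. The group was chosen by values of these same arrays, the log2 differences between Cre-ERT2 and ERT2 samples, so the values of the 5 genes are given as a description and carry no test.

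The cells were pre-B cells of 129SvEv x C57BL/6J mice of 5 weeks, transformed with BCR-ABL1, the fusion kinase of a B-cell leukaemia, and all 6 samples had the genotype Sox4fl/fl. In 3 samples the cells were transduced with ERT2, an oestrogen receptor domain that binds 4OHT (4-hydroxytamoxifen). In the other 3 they were transduced with Cre-ERT2, a recombinase that 4OHT switches on. RNA of all 6 samples was taken 24 h after 4OHT, which induces deletion where Cre-ERT2 is present. The comparison addresses what changes when Sox4, a transcription factor of B-cell progenitors, is removed. No sample combines Cre-ERT2 with intact Sox4, so deletion and Cre activity cannot be told apart, and since the labels do not name separate cultures, p-values cover the spread among these samples alone, which may be technical.

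Fc receptor-like proteins sit at the points where lymphocytes sense antibody or other immune ligands. Fcrl1 and Fcrl5 are surface receptors of mature B cells whose cytoplasmic tails carry tyrosine motifs: activating-type (ITAM-like) ones in Fcrl1, and an inhibitory (ITIM) one beside an ITAM-like one in Fcrl5, which in mice marks marginal zone and B-1 B cells. Fcrl6 is a receptor known from cytotoxic lymphocytes in humans and from subsets of B-cell progenitors in mice. Fcrla and Fcrlb lack a membrane anchor and stay inside the cell, and Fcrla binds immunoglobulin in the secretory pathway of B cells.

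Fcrla and Fcrlb are direct neighbours on chromosome 1, Fcrl6 lies on the same chromosome at another place, and Fcrl1 and Fcrl5 are direct neighbours on chromosome 3. The sequences around the annotated starts of all members are shown because Fcrla and its neighbour Fcrlb differed in how far they moved. Each window is the RefSeq promoter sequence of the gene, from 250 bases before to 50 bases after a start, 5′ to 3′ on the gene's strand. Capitals mark matches to 4 short motifs searched on both strands: ACAAAG (the core bound by Sox and TCF-LEF factors), CACCTG (an E-box bound by E2A), CCCNNGGG (the half-sites of EBF1) and GAGGAAG (bound by Ets factors and PU.1). No marked matches overlap each other.
Fcrl6 (GRCm38.p6 chr1:172602502-172602801, minus strand): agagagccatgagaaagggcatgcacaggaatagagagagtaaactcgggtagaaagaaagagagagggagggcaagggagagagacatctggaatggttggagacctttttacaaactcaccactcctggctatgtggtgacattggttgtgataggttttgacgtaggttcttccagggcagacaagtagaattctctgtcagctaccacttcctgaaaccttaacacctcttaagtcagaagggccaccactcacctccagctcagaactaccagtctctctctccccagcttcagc
Fcrla (GRCm38.p6 chr1:170927534-170927833, minus strand): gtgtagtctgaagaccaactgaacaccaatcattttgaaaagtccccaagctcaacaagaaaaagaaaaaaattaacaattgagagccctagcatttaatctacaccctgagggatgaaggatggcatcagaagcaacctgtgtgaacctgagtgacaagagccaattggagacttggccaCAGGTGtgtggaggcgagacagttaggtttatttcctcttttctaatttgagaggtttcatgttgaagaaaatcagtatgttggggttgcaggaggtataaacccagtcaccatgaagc
Fcrlb (GRCm38.p6 chr1:170912892-170913191, minus strand): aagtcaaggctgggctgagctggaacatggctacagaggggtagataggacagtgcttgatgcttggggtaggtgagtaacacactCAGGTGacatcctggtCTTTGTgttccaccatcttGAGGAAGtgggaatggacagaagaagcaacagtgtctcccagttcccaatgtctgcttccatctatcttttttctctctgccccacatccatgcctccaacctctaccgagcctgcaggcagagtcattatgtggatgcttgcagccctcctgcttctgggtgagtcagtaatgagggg
Fcrl1 (GRCm38.p6 chr3:87376137-87376436, plus strand): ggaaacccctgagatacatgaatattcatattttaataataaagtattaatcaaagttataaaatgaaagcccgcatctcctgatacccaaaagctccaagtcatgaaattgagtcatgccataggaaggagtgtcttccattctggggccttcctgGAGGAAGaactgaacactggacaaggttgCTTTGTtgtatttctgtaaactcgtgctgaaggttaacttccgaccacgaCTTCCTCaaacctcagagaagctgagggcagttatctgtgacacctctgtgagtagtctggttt
Fcrl5 (GRCm38.p6 chr3:87435532-87435831, plus strand): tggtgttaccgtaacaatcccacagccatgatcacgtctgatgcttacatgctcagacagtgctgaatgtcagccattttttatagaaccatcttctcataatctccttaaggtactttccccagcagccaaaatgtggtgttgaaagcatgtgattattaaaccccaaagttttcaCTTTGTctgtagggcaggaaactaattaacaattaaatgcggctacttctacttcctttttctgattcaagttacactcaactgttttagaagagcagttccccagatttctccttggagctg
ACAAAG, on the opposite strand and so read as CTTTGT, was found in the windows of Fcrlb, Fcrl1 and Fcrl5, and not in those of Fcrl6 and Fcrla. It lay 148, 64 and 73 bases before the start, in that order, counted from its first base. Over all 32851 windows of this length in the table, 18.7% hold this motif. CACCTG, read as CAGGTG, was found 69 bases before the start of Fcrla and 164 before that of Fcrlb, against 20.2% of all windows. GAGGAAG was found in Fcrlb and Fcrl1, against 13.6% of all windows, and CCCNNGGG, which 13.7% hold, in none of the 5. The Fcrl6 window held none of the 4 motifs. For Fcrl6, Fcrla and Fcrlb the annotated gene also reaches further upstream than the start used, so other starts are not covered. A match is a description of letters and no evidence of binding.

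Fcrl6 and Fcrla were far higher in the Cre-ERT2 samples, while Fcrlb, Fcrl1 and Fcrl5 differed little. Fcrl6 (probe set 10360315) gave intensities of 264, 242 and 230 on the ERT2 arrays and of 1365, 1376 and 1351 on the Cre-ERT2 arrays. All 3 Cre-ERT2 readings were high and lay close together, and the lowest of them was 5.11 times the highest control. The group means were 246 ± 17.3 (SD, n = 3) and 1364 ± 12.6 (SD, n = 3), a ratio of 5.56. On the log2(intensity + 1) scale, on which all differences here are given, Fcrl6 differed by 2.47 (SE 0.0621), the number 5 of 19938 genes when differences are ordered from the highest.

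Fcrla (probe set 10360018), the intracellular immunoglobulin-binding member, read 349, 353 and 354 in ERT2 samples and 966, 1092 and 995 in Cre-ERT2 samples. The control readings were nearly equal, the Cre-ERT2 readings were spread more widely, and the groups lay far apart, the lowest Cre-ERT2 value being 2.73 times the highest control. The means were 352 ± 2.60 (SD, n = 3) and 1018 ± 66.1 (SD, n = 3), a ratio of 2.89 and a log2 difference of 1.53 (SE 0.0594). That difference was number 28 of the 19938 genes.

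Fcrlb (probe set 10360012), the neighbour of Fcrla and like it an intracellular protein, read 262, 225 and 259 in ERT2 samples and 271, 236 and 232 in Cre-ERT2 samples. The groups overlapped throughout, with means of 248 ± 20.4 (SD, n = 3) and 246 ± 21.7 (SD, n = 3) and a log2 difference of -0.011 (SE 0.089). The pair thus held one gene with a ratio of 2.89 and one with a ratio of 0.992.

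Fcrl1 (probe set 10492971), the activating-type receptor, read 388, 395 and 354 in ERT2 samples and 353, 361 and 332 in Cre-ERT2 samples. The Cre-ERT2 readings tended to be lower, but the highest of them exceeded the lowest control, so the groups overlapped. Its means were 379 ± 21.7 (SD, n = 3) and 349 ± 15.2 (SD, n = 3), with a log2 difference of -0.12 (SE 0.0634). Fcrl5 (probe set 10492983), the receptor of marginal zone and B-1 B cells, read 111, 115 and 111 in ERT2 samples and 125, 139 and 117 in Cre-ERT2 samples. These groups did not overlap, but only narrowly, since the lowest Cre-ERT2 value was 1.01 times the highest control. The Fcrl5 means were 113 ± 2.34 (SD, n = 3) and 127 ± 11.2 (SD, n = 3), with a log2 difference of 0.17 (SE 0.072).

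**Figure D1:**
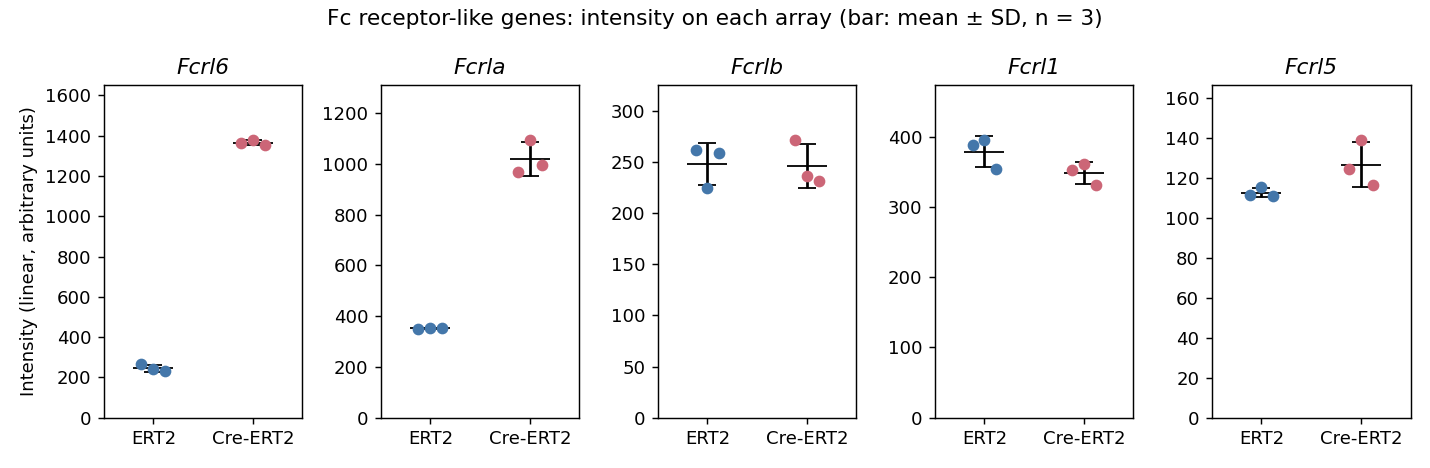
Intensity of the 5 Fc receptor-like genes on each array, on a linear axis that starts at 0 and is scaled separately for each gene; points are arrays and bars give the mean ± SD (n = 3 per group). The Cre-ERT2 points of Fcrl6 (1351 to 1376) and Fcrla (966 to 1092) lie far above their controls, while those of Fcrlb and Fcrl1 overlap them and those of Fcrl5 sit just above.

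The spread within a group, as the SD relative to the mean, was 7.04% in the ERT2 samples and 0.924% in the Cre-ERT2 samples for Fcrl6, and 0.74% and 6.49% for Fcrla. The remaining genes had spreads between 2.08% and 8.86%. Cre-ERT2 replicate 2 gave the highest reading of its group for Fcrl6, Fcrla, Fcrl1 and Fcrl5, and Cre-ERT2 replicate 1 for Fcrlb. Over all 6 arrays, Fcrlb and Fcrl5 averaged below the median log2 value of all probe sets (8.12), and the 3 others above it. Fcrl6 did so only through its Cre-ERT2 arrays, as its ERT2 mean was 7.94, close to that of Fcrlb (7.96). How much of a dim reading is background is not known from these values, and this holds for the Fcrl6 controls too.

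By the call rule of the fit over all probe sets (limma, Benjamini-Hochberg adjusted p under 0.05), 2 of the 5 genes counted as higher in Cre-ERT2, Fcrl6 and Fcrla, and 0 as lower, where 4.38% of all genes counted as higher and 3.72% as lower. The groups did not overlap in 3 of the 5 (Fcrl6, Fcrla and Fcrl5), where that held for 28.3% of all genes. Since the genes were gathered with this contrast known, nothing is read from these counts. The median difference of the 5 was 0.17, against 0.021 over all genes.

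Facts of the arrays as a whole bear on these values as follows. The arrays had median intensities from 273 to 279, and with 1 array per sample the number of arrays limits the precision. Sox4 itself fell by 1.31 on the log2 scale (SE 0.0912, limma adjusted p = 0.000434), from a mean of 1356 ± 112 to 546 ± 50.4 (SD, n = 3 each), with no overlap. The Cre-ERT2 mean of Sox4 was still 0.403 of the ERT2 mean, and whether deletion was complete was not tested. The B-lineage label was checked on its markers, and their levels went both ways. Enpep, an aminopeptidase on early B cells, fell from a mean of 3719 to 130 (log2 difference -4.84, adjusted p = 2.08e-05), and Il7r, the interleukin 7 receptor, and Rag2, a recombinase subunit, fell, with differences of -0.93 and -1.35, while Dntt, the terminal transferase, rose by 1.33. Igll1, the surrogate light chain of pre-B cells, gave 18846 ± 38.8 in ERT2 and 19026 ± 97.7 in Cre-ERT2 samples, and Cd79a, a signalling chain of the B-cell receptor, 11788 ± 491 and 11234 ± 198 (SD, n = 3 each). The 13 measured of 14 pre-B cell markers summed to 83171 to 83720 in ERT2 samples and to 75251 to 77114 in Cre-ERT2 samples, where 2 rose (Dntt and Vpreb2), 4 fell (Enpep, Il7r, Rag2 and Rag1) and 7 were not called, Igll1 and Cd79a among them.

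Markers of other cells that could carry these genes were measured beside them. Of 9 NK-cell markers none was called in either direction (limma; 0 of 9 also had an unadjusted p under 0.05). Their summed intensity was 839 to 872 in ERT2 and 846 to 894 in Cre-ERT2 samples, and the defining markers Ncr1 and Klrb1c read between 61.3 and 76.0 and between 44.1 and 51.6. Of 8 T-cell markers Lat, an adaptor of antigen receptors, rose (0.47, SE 0.0536, adjusted p = 0.00369) and 0 fell (limma; 1 was lower at an unadjusted p under 0.05), with sums of 1706 to 1782 and 1932 to 2028. Of 7 plasma-cell markers Jchain, Xbp1 and Mzb1 rose and Sdc1 fell, with sums of 15102 to 16387 in ERT2 and 20037 to 20812 in Cre-ERT2 samples. Of 11 myeloid markers Lyz2, which encodes lysozyme, rose (1.40, SE 0.108, adjusted p = 0.000654) and Itgam, an integrin subunit, fell, with sums of 1777 to 1898 and 2267 to 2508. None of 4 erythroid markers was called (limma; 0 of 4 also had an unadjusted p under 0.05), with sums of 10003 to 10641 and 10038 to 10116. Most of these sums was Tfrc, with means of 9775 in ERT2 and 9453 in Cre-ERT2 samples. They thus say little of Klf1, Alas2 and Epor, whose group means lay between 149 and 287. Of 8 stromal markers 0 rose (0 also at an unadjusted p under 0.05) and 1 fell (Fn1), with sums of 1980 to 2259 and 2045 to 2224. Mzb1 missed the threshold when any array except ERT2 replicate 1 was left out (adjusted p from 0.067 to 0.14) and under median centring (0.0539), Fn1 when any except Cre-ERT2 replicate 1 was (0.0768 to 0.132), and Itgam without ERT2 replicate 1 (0.0574) or Cre-ERT2 replicate 2 (0.0558). No marker reads 0 on these arrays. The part of the lists that moved in the values of Fcrl6 and Fcrla was not tested. In bulk RNA, fewer cells of a type and less RNA per cell cannot be told apart.

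The classical Fc receptors, which bind the constant part of antibodies, were listed with related genes, not all of which bind antibody themselves. Of 13 measured genes of this list 2 rose and 0 fell (limma; 1, Pigr, was lower at an unadjusted p under 0.05), and the 11 others had differences from -0.17 to 0.13. The list's median difference was 0.068, against 0.021 over all genes. Over all genes 4.38% counted as higher and 3.72% as lower, the shares to set beside the counts of every list here. Fcgr2b, the inhibitory IgG receptor of B cells, read 3355, 3029 and 3159 in ERT2 samples and 5082, 4965 and 5061 in Cre-ERT2 samples. Every Cre-ERT2 array was above every control, and Fcgr2b rose by 0.66 (SE 0.0543, limma adjusted p = 0.000875). Fcgr1, the high-affinity IgG receptor of phagocytes, was dim, at 155, 172 and 158 against 248, 250 and 258. Its groups were also apart, and it rose by 0.64 (SE 0.0568, adjusted p = 0.00125). Pigr, which carries polymeric antibody across epithelia, and Fcamr, a receptor for IgA and IgM, were not called (-0.17 and 0.13, adjusted p = 0.161 and 0.38). Fcrls, a mouse relative of the Fc receptor-like genes that lies near Fcrl1 and was named outside the naming rule, had a difference of 0.073 (SE 0.0602, adjusted p = 0.661) at a mean of 86.9 ± 3.27 in ERT2 and 91.5 ± 5.06 in Cre-ERT2 samples (SD, n = 3 each). Fcgr2b, Fcgr3 and Fcgr4 are similar in sequence, and how far their probes tell them apart was not analysed here.

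**Figure D2:**
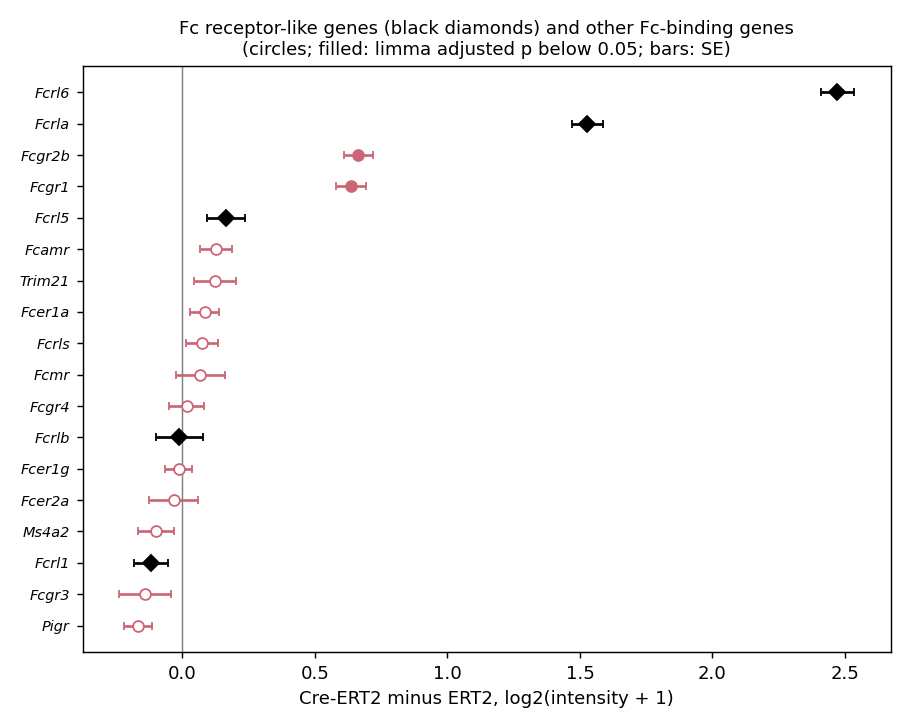
Difference between Cre-ERT2 and ERT2 samples on the log2(intensity + 1) scale, with SE bars. Black diamonds are the 5 Fc receptor-like genes, and circles 13 classical Fc receptors and related genes, filled where limma adjusted p was under 0.05. Fcrl6 (2.47) and Fcrla (1.53) stand at the right, followed by Fcgr2b (0.66) and Fcgr1 (0.64), and all other genes lie between -0.17 and 0.17.

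Among the chromosomal neighbours of the members calls went both ways, and none of the called genes lay around Fcrl6. The 5 measured genes nearest on each side of every member were taken in the order of the RefSeq gene table, which gave 30 genes around 3 places. Around Fcrl6 0 of 10 neighbours rose and 0 fell by limma (1 of 10, Tagln2, had an unadjusted p under 0.05), with differences from -0.23 to 0.14. Its direct neighbours were Slamf8, a receptor of the SLAM family (-0.0073, SE 0.0704), and Dusp23, a phosphatase (0.14, SE 0.0676). Around Fcrla and Fcrlb 2 of 10 rose and 2 fell: Fcgr2b, next to Fcrla, rose as given above, Atf6, a sensor of stress in the endoplasmic reticulum, rose by 0.27 (SE 0.0506, adjusted p = 0.0307), and Cfap126, a cilium gene, and Olfml2b fell (-0.51, SE 0.07, adjusted p = 0.00809, and -0.58, SE 0.0864, adjusted p = 0.0114). The genes Fcgr4 and Fcgr3, which follow Fcgr2b, had differences of 0.015 and -0.14 (adjusted p = 0.955 and 0.586). Around Fcrl1 and Fcrl5 1 of 10 rose, Etv3, an Ets-family repressor beside Fcrl5 (0.30, SE 0.0592, adjusted p = 0.0361), and 1 fell, Cd1d1, which presents lipid antigens (-1.18, SE 0.087, adjusted p = 0.000547). In all 3 of 30 rose and 3 fell, with a median of -0.013, where 4.38% of all genes counted as higher and 3.72% as lower. Neighbours other than Cd1d1, Fcgr2b, Cfap126 and Olfml2b were named after their values were seen. Atf6 and Etv3 missed the threshold when any array except ERT2 replicate 2 was left out (adjusted p from 0.0892 to 0.13 and from 0.0745 to 0.144), which leaves 1 risen neighbour.

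**Figure D3:**
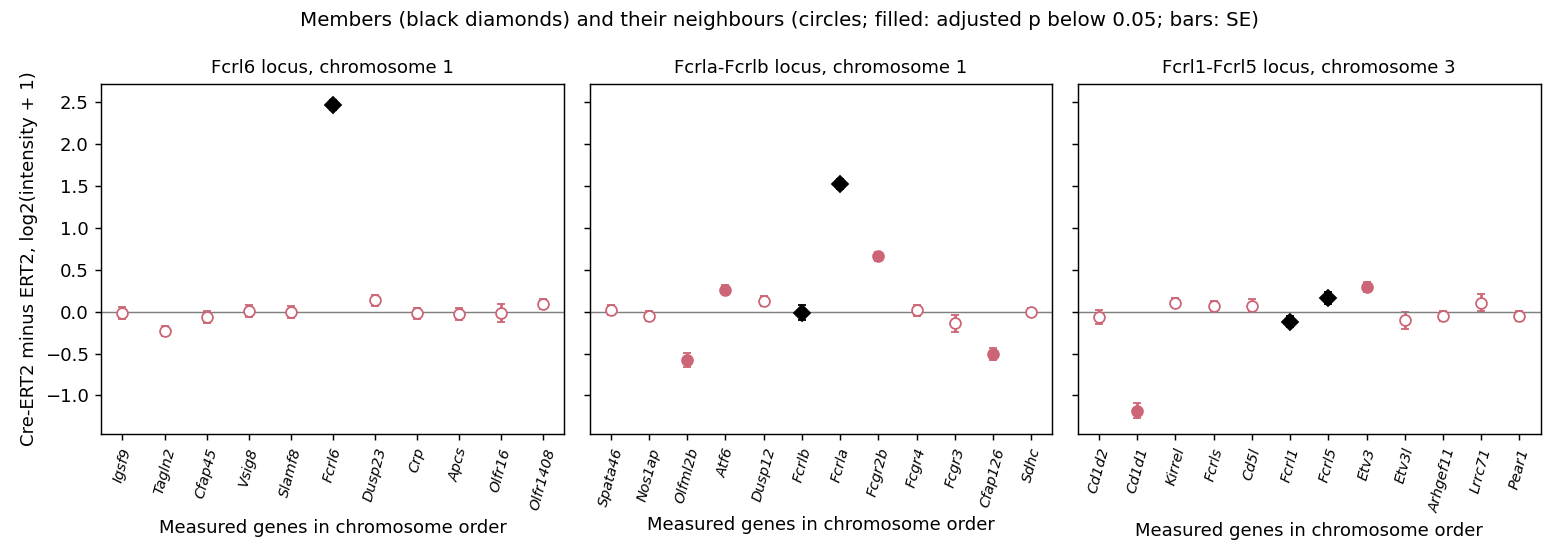
Difference on the log2(intensity + 1) scale of each member (black diamonds) and the nearest measured genes in chromosome order (circles, filled where limma adjusted p was under 0.05), with SE bars and 1 panel per place. Fcrl6 stands alone at 2.47 above neighbours between -0.23 and 0.14, and Fcrla (1.53) has Fcgr2b (0.66) on one side and Fcrlb (-0.011) on the other.

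Other inhibitory receptors, most of which restrain activation through tyrosine motifs like the ITIM-bearing Fc receptor-like proteins, changed in both directions. Of 18 measured, 5 rose and 4 fell, with a median of 0.06, and the 9 others had differences from -0.018 to 0.26. Siglecg, a sialic acid-binding brake on B-cell receptor signalling, read 2015, 2204 and 1894 in ERT2 samples and 423, 358 and 458 in Cre-ERT2 samples. All Cre-ERT2 readings were low, and it fell by 2.31 (SE 0.105, limma adjusted p = 9.67e-05). Cd72, a lectin-like co-receptor of B cells, read 4703, 5054 and 4663 against 2399, 2557 and 2506, and fell by 0.95 (SE 0.0552, adjusted p = 0.000219). On the other side, Cd5, an inhibitory co-receptor of T cells and B-1 B cells, rose by 0.56 (SE 0.0676, adjusted p = 0.0048), and Btla, the attenuator that binds HVEM, rose by 0.64 (SE 0.0779, adjusted p = 0.00492). The other members that passed, named after their values were seen, were Sirpa and Cd22, which fell (-0.94 and -0.41), and Lilrb4a, Pecam1 and Clec12a, which rose (0.54, 0.33 and 0.36). Pecam1 missed the threshold when ERT2 replicate 1 or any Cre-ERT2 array was left out (adjusted p from 0.0516 to 0.0801). Clec12a did so when any array except Cre-ERT2 replicate 1 was left out (0.0613 to 0.152), after a further quantile normalization (0.0672) and under cyclic loess (0.0899). With ERT2 replicate 1 left out 3 members rose, and likewise with replicate 2 or replicate 3 of Cre-ERT2.

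Tyrosine motifs of these receptors act through phosphatases, kinases and adaptors, and 4 of the genes measured were called. Of 20 measured signalling partners 2 rose and 2 fell, with a median of 0.026, and the 16 others lay between -0.12 and 0.28. Plcg2, the phospholipase below the B-cell receptor, read 4945, 4695 and 4581 in ERT2 samples and 6032, 6412 and 6057 in Cre-ERT2 samples, with no overlap, and rose by 0.38 (SE 0.0539, limma adjusted p = 0.0091). Pag1, a membrane adaptor that recruits the inhibitory kinase Csk, rose by 0.35 (SE 0.0657, adjusted p = 0.0293). Inppl1, an inositol phosphatase of the SHIP family, and Dok3, an inhibitory adaptor, fell (-0.32, SE 0.0493, adjusted p = 0.0124, and -0.39, SE 0.0644, adjusted p = 0.0179). Inppl1 and Dok3 missed the threshold when ERT2 replicate 1 or any Cre-ERT2 array was left out (adjusted p from 0.0537 to 0.0725 and from 0.0607 to 0.0806), which leaves 0 lower, and Pag1 did so when any array except ERT2 replicate 2 was left out (0.0698 to 0.114), which leaves 1 higher.

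**Figure D4:**
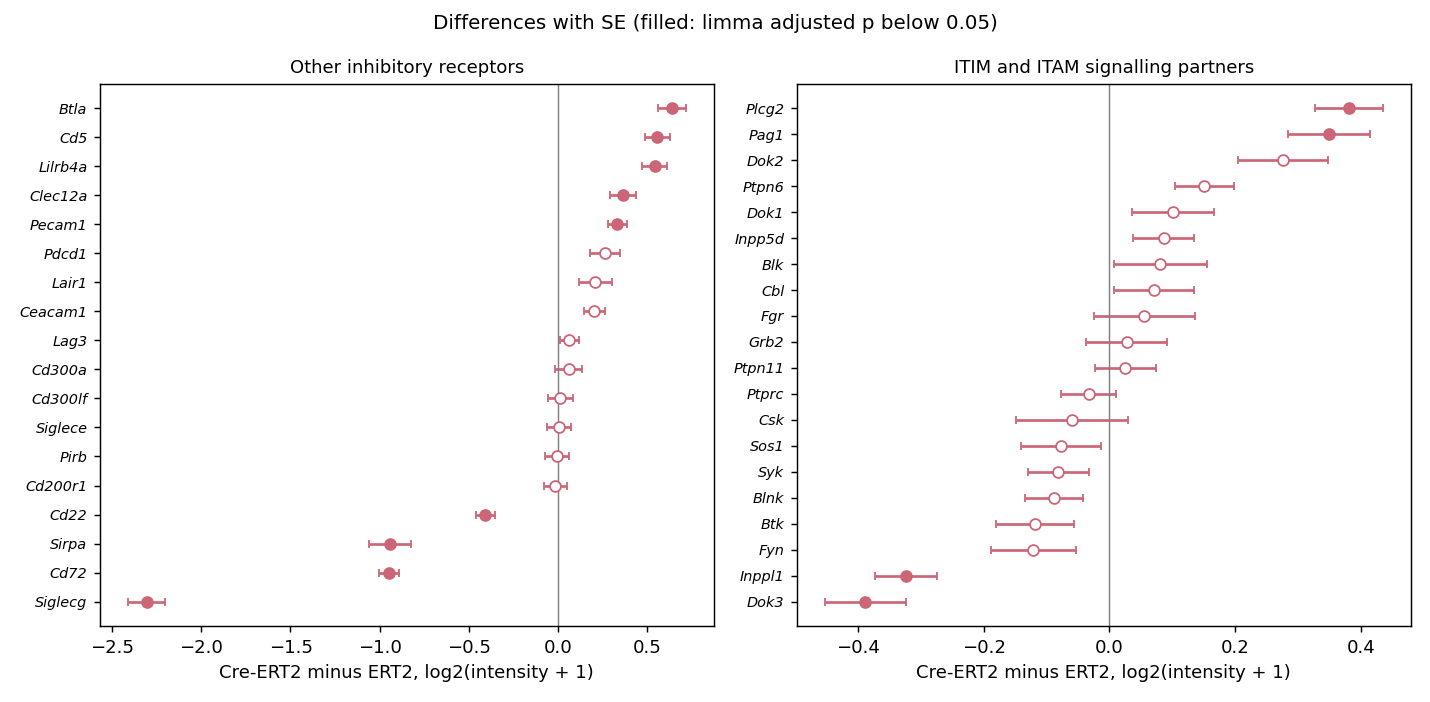
Differences on the log2(intensity + 1) scale with SE bars for 18 other inhibitory receptors (left) and 20 signalling partners of tyrosine motifs (right), filled where limma adjusted p was under 0.05; the axes have different ranges. The receptors reach from -2.31 (Siglecg) to 0.64 (Btla), and the signalling partners from -0.39 (Dok3) to 0.38 (Plcg2).

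MHC class II, which human FCRL6 binds as a ligand, was represented by 11 measured genes, of which 2 rose and 0 fell by limma (0 were lower at an unadjusted p under 0.05; median 0.033, the 9 others from -0.21 to 0.16). Cd74, the invariant chain, read 1924, 1799 and 1887 in ERT2 samples and 5493, 5449 and 5140 in Cre-ERT2 samples, and rose by 1.52 (SE 0.0532, limma adjusted p = 4e-05). H2-DMa, a chaperone that loads peptides, read 556, 518 and 464 against 1010, 1081 and 955, and rose by 0.99 (SE 0.0833, adjusted p = 0.000976). In both genes the groups were well apart. H2-Ab1, which encodes a chain of the class II molecule itself, was dim and not called (-0.21, SE 0.0915, adjusted p = 0.327), as was Rfxank, a subunit of the factor that binds class II promoters (0.16, SE 0.0629, adjusted p = 0.27).

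Among genes of the later B-cell stages in which Fcrl1, Fcrl5 and Fcrla are known, those of mature and marginal zone cells moved both ways. Of 17 genes of mature and marginal zone B cells 4 rose and 3 fell (median 0.033). Cd180, a Toll-like receptor relative, rose by 0.90 (SE 0.0541, limma adjusted p = 0.000255). S1pr3 and S1pr1, sphingosine phosphate receptors that position B cells, fell, with differences of -1.69 (SE 0.118, adjusted p = 0.000434) and -0.73 (SE 0.0848, adjusted p = 0.00405), and so did Cd1d1, high on marginal zone B cells (value above). The other members that passed, named after their values were seen, were Tnfrsf13b (0.38), Bhlhe41 (0.43) and Ccr7 (0.34). With ERT2 replicate 2 left out 2 members rose, and likewise with replicate 1 or replicate 2 of Cre-ERT2, as Bhlhe41 (adjusted p from 0.0527 to 0.0874) and Ccr7 (0.0502 to 0.0903) lost their calls. Bhlhe41 also lost it without ERT2 replicate 1, and Ccr7 without Cre-ERT2 replicate 3. Of 13 germinal centre genes 2 rose and 0 fell by limma (0 were lower at an unadjusted p under 0.05; median 0.042): Ebi3, a cytokine subunit, by 0.58 (SE 0.0779, adjusted p = 0.00717) and Pou2f2, which encodes the octamer factor Oct2, by 0.35 (SE 0.0485, adjusted p = 0.0082). Irf8 and Bach2, transcription factors of B cells, were not called (0.19 and -0.11, adjusted p = 0.0938 and 0.392).

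The genes whose pattern over the 6 arrays was most like that of Fcrl6 were Gimap4, Fstl1, Jchain, Lrrc4c and Mmp13. Likeness was the mean absolute gap between log2 values, each gene centred on its own mean, and was computed for 19937 genes. Gimap4, a GTPase of lymphocytes, was nearest at 0.0966, with a difference of 2.62 between groups. Fstl1, a secreted glycoprotein, followed at 0.119 (difference 2.43), then Jchain, which joins polymeric antibodies, at 0.163 (2.15), Lrrc4c, a netrin-G ligand, at 0.18 (2.83), and Mmp13, a collagenase, at 0.186 (2.41). As the groups lay far apart in all of them, this measure follows mainly the size of the group difference, and the points share arrays and normalization. Fcrla was number 26 by the same measure, at a gap of 0.472, whereas Fcrl5, Fcrlb and Fcrl1 had gaps of 1.15, 1.24 and 1.30.

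**Figure D5:**
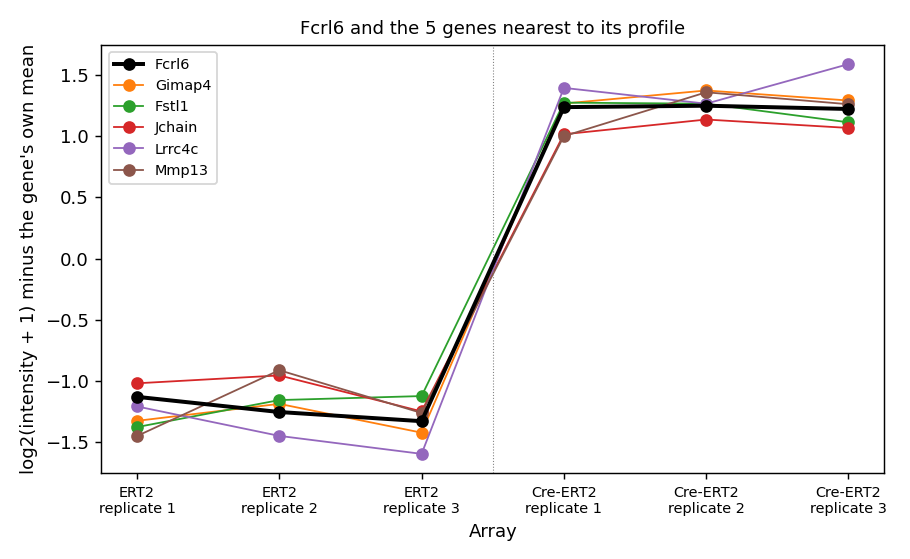
Log2(intensity + 1) minus each gene's own mean on each of the 6 arrays, for Fcrl6 (black, thick) and the 5 genes nearest to it; the dotted line parts the ERT2 from the Cre-ERT2 arrays. All 6 lines step up between the groups by 2.15 to 2.83 and vary by less than that within them.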

How the data were processed

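Biotin-labelled total RNA of 6 samples was hybridised to Affymetrix arrays, per the labels. The authors' deposited values are 1 intensity per probe set and array, made with RMA per the submitters' processing notes; its version and the array's genome build are unstated (not given in the sources used here). The intensities are linear (6.27 to 26714), so log2(intensity + 1) was computed. Of 35556 probe sets 21789 name 1 gene, 1621 several and 12146 none; genes came only from the first kind, with the brightest probe set on average where there were several. List members without such a probe set were not analysed here.

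All probe sets were fitted with limma 3.58.1 in R 4.3.3 (lmFit, eBayes, no covariates), with Benjamini-Hochberg adjustment over all of them and a threshold of 0.05. The fit was run on simulated data with independent noise, which cannot show the effect of variation shared between samples. Lists are described by counts and medians, with no set test. The rule for named genes took the 5 members, Sox4, up to 4 genes of each list and of the chromosomal neighbours by smallest p, and the 5 genes most like Fcrl6; all others were named after their values were seen, cell type markers included. Members and lists were chosen with earlier results of these data known. Promoter sequences are from RefSeq (GRCm38.p6), in which all 5 members matched.

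Alternatives were pseudocounts of 16 or none, brighter or single-gene probe sets alone, centring of arrays on their medians, cyclic loess, repeated quantile normalization, an intensity trend, the replicate number as a block, averaging of all probe sets of a gene, and each array left out in turn.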

Additional observations from a re-analysis of the deposited data

How the results depend on the processing

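The differences of the 5 Fc receptor-like genes moved by less than the spread between replicates in all 73 recomputed values: Fcrl6 stayed between 2.40 and 2.53, Fcrla between 1.48 and 1.56, Fcrlb between -0.082 and 0.032, Fcrl1 between -0.17 and -0.084 and Fcrl5 between 0.098 and 0.22. Brighter or single-gene probe sets alone, the replicate block and averaging of probe sets cannot move a member's difference, so those values are no check. Leaving out 1 of the 3 arrays of a group cannot move a difference by the full spread between replicates either. The values without an array were therefore bound to stay below that spread. Fcrlb and Fcrl5 gave no value among the brighter probe sets alone, since they are too dim. Fcrl6 was among the brighter ones only through its Cre-ERT2 arrays. Without single arrays the number of probe sets higher over the whole table was 606 to 1319 (1143 with all arrays) and of lower ones 654 to 883 (1009). In the same way risen signalling partners numbered 1 to 2 and fallen ones 0 to 2, risen inhibitory receptors 3 to 4, risen genes of mature and marginal zone B cells 2 to 4 and risen chromosomal neighbours 1 to 3. Among the brighter probe sets alone 1 classical Fc receptor and 3 inhibitory receptors rose, as fewer genes were tested. Of 49 single genes called in the lists, with Sox4 and those most like Fcrl6, 12 lost their call under at least 1 alternative and 0 reversed. Same-numbered samples did not deviate together throughout (correlations of 0.205, 0.344 and -0.049 for replicates 1, 2 and 3). Of 6 samples 3 correlated best with their own number. So few samples cannot settle whether the numbers are pairs, and the main fit did not pair them. With the replicate block 959 probe sets were higher and 877 lower, 1 signalling partner fell and 1 neighbour rose, as Dok3, Clec12a, Bhlhe41, Atf6, Etv3, Mzb1 and Fn1 missed the threshold (adjusted p = 0.0645, 0.0817, 0.075, 0.0669, 0.0722, 0.0549 and 0.0645). A further quantile normalization or cyclic loess shifted all differences by a median of -0.022 or -0.023.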

Other observations

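Cd1d1 has a near-identical copy beside it, Cd1d2, and the pair lies at the edge of the region of Fcrl1 and Fcrl5. Cd1d1 fell, from a mean intensity of 478 to 210, whereas Cd1d2 had a mean of 153 in ERT2 and 146 in Cre-ERT2 samples (n = 3 each) and a difference of -0.064 (SE 0.0851, limma adjusted p = 0.81). How far the probes of the 2 copies tell them apart was not analysed here, so both values are uncertain.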
